A study of Mus with 9 samples.

Results

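The hippocampus of TG-treated SAMP8 mice was compared with that of SAMR1 mice given vehicle, using the 6 arrays of these groups out of 9 arrays in the series. Each group held 3 arrays. SAMP8 is the senescence-accelerated mouse prone strain, in which learning and memory decline early, and SAMR1 is its senescence-accelerated mouse resistant relative, used as the control for normal aging. All mice were male and are given as 16 weeks old. In the methods a week of acclimatization and the dosing came next, and no age at dissection is given. All mice were put through a water maze before the tissue was taken. TG-treated SAMP8 received TG (trigonelline, a plant alkaloid found in coffee and fenugreek) orally, 5 mg/kg each day over 30 days, and through a further 8 days of behavioral testing. SAMR1 and nontreated SAMP8 received vehicle on the same schedule, given as saline in the sample records and as water in the methods. No SAMR1 group received TG, so strain and TG differ together between the groups compared here, and their parts in a difference cannot be told apart from this comparison alone.

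For each of 22206 probe sets (the probes for a transcript cluster, nearly always 1 gene), the difference was the authors' log2 group average in TG-treated SAMP8 minus that in SAMR1, so that 1 on this scale is a 2-fold difference. All 22206 probe sets entered. The nontreated SAMP8 average was used to place each probe set: a strain difference could stay, return to the SAMR1 level or pass to the other side of it. That average was the same in both deposited tables for 22206 of 22206 probe sets, and the medians of the group averages were 6.09 in SAMR1, 6.04 in nontreated and 6.07 in TG-treated SAMP8. Only 1 average per group was used, so no spread between mice stands beside any value, no test was run, and a difference below is a difference between averages of 3 arrays. TG-treated minus SAMR1 and nontreated minus SAMR1 share the SAMR1 average, and a SAMR1 average that is off by chance puts a probe set on the same side in both.

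The hippocampus builds spatial memory in a chain of excitatory neurons (dentate granule cells, CA3 and CA1 pyramidal cells) held in check by interneurons, and its firing rests on mitochondrial ATP and on continuous protein synthesis. TG-treated and nontreated SAMP8 share a genome that differs from that of SAMR1, and whether the sequence or copy number of a gene has a part in its difference between the strains was not tested.

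Both SAMP8 groups lay close to SAMR1 for most of the transcriptome. The difference had a median of -0.01 and quartiles of -0.21 and 0.20 on the log2 scale with TG, beside 0.00, -0.21 and 0.21 without TG. In TG-treated SAMP8, 252 probe sets (1.13%) were at least 2-fold higher than in SAMR1 and 158 (0.712%) at least 2-fold lower, 410 (1.85%) in all. At 1.5-fold the counts were 1248 (5.62%) higher and 1073 (4.83%) lower. Nontreated SAMP8 had 186 probe sets (0.838%) at least 2-fold above SAMR1 and 327 (1.47%) at least 2-fold below it, and 1110 and 1350 at 1.5-fold. At either limit more probe sets lay on the higher side with TG and more on the lower side without it. Of all 22206 probe sets, 17340 had a single symbol of a characterized gene outside the olfactory and vomeronasal receptors. Of the 252 higher probe sets 182 did, a share not above that of all probe sets. Of the 158 lower ones only 57 did, a share well below it. The rest of the lower ones were mostly predicted genes and chemosensory receptors.

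Most probe sets past 2-fold in TG-treated SAMP8 already leaned the same way without TG. Among the 252 higher ones, nontreated SAMP8 was past 2-fold on the same side for 101 (40.1%) and between 1.2-fold and 2-fold for 118 (46.8%). It lay within 1.2-fold of SAMR1 for 33 (13.1%). Among the 158 lower ones the same counts were 90 (57.0%), 60 (38.0%) and 6 (3.8%), and for 2 nontreated SAMP8 lay on the other side. Read from the strain difference, 101 of the 186 probe sets higher in nontreated SAMP8 (54.3%) and 90 of the 327 lower ones (27.5%) were still past 2-fold with TG. The shared SAMR1 averages enter all of these counts.

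**Figure D1:**
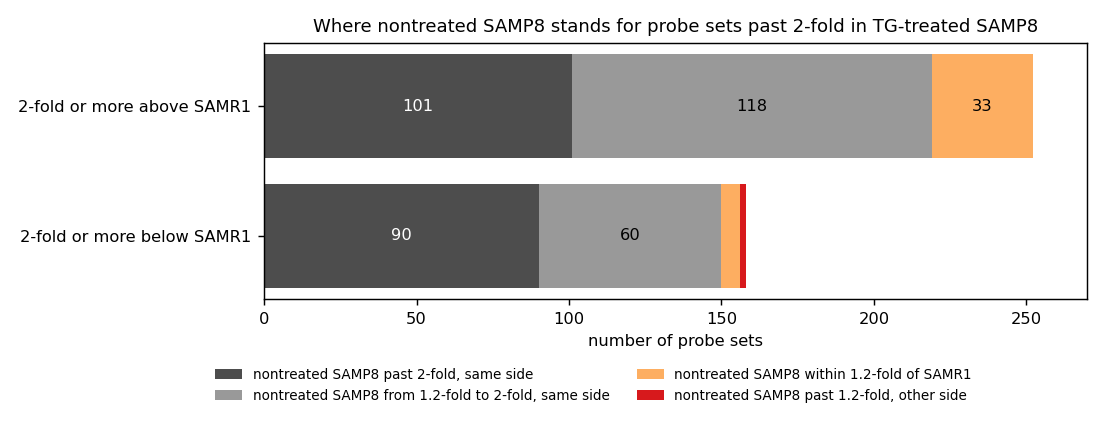
Horizontal bars count the probe sets (x axis) whose TG-treated SAMP8 average was at least 2-fold above (252) or below (158) the SAMR1 average, and the shades split them by where nontreated SAMP8 stood. The dark shade, a strain difference of at least 2-fold that stayed, takes 101 of the higher and 90 of the lower probe sets, and the orange shade, nontreated SAMP8 within 1.2-fold of SAMR1, takes 33 and 6.

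The highest differences were led by strain differences of chromosome 4 that were of similar size without TG and with it. The predicted transcript Gm3893, whose probe set also covers 4933409K07Rik (GRCm38 chr4:42089373-42092930), averaged 7.63 in SAMR1, 18.00 in nontreated and 17.99 in TG-treated SAMP8. This is a log2 difference of 10.36 from SAMR1. The probe set of Fam205a2 and Gm10600 differed by 7.76, that of Gm10600 alone by 7.65, and those of Gm21968 and Gm10592 by 7.46, with identical averages in every group for the last pair. Beside nontreated SAMP8 these TG-treated averages stood 0.54 higher for Fam205a2 and Gm10600 together and differed by -0.04 for Gm10600 and by -0.31 for the last pair. Whether these entries share probes, and so whether they can be measured apart, was not tested.

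Among characterized genes the same stretch led. Ccl27a, a chemokine of skin and brain (chr4:41769467-41774225), averaged 9.88 in SAMR1, 13.92 in nontreated and 13.81 in TG-treated SAMP8, a difference of 3.93 or 15.24-fold. Ccl19, a ligand of the receptor Ccr7 that guides T cells and dendritic cells, averaged 5.69, 8.53 and 8.62 in the same order on the brightest probe set that names it alone. The 6 probe sets that carry the symbol Ccl19 were all higher, by 1.04 to 3.33. Dctn3, a subunit of the dynactin complex that links cargo to the dynein motor, averaged 10.36, 12.30 and 12.96, a difference of 2.60 (chr4:41714798-41723163). For Ccl27a and this Ccl19 probe set the SAMP8 groups lay side by side and SAMR1 apart, whereas Dctn3 stood 0.66 higher with TG than without, and the dimmest Ccl19 probe set (4.35, 4.67 and 5.39) parted from SAMR1 mainly with TG. In all, 25 of the higher probe sets, with 16 leading symbols, lay in a run between 40948553 and 43493059 on chromosome 4 in which no 2 neighbours were over 1 Mb apart, and 45 of the 72 probe sets in that span were on the higher side. All 11 cytokine and chemokine probe sets at least 2-fold higher (11 of 104) were Ccl19 and Ccl27 entries of this cluster, and the median of the 104 was 0.04.

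Chromosome 4 as a whole held 50 of the 252 higher probe sets (19.8%), although it carries 6.1% of the probe sets on the array. Chromosome X held 43 of the 158 lower ones (27.2%) with 4.4% of the probe sets, and chromosome Y a further 10 of its 219. Part of the lower ones on X stood in runs of predicted genes. All 12 probe sets between 3193879 and 4802359 lay below SAMR1, 8 of them at least 2-fold, and so did all 11 between 32278394 and 33956593, 6 of them at least 2-fold. A run of 9 on chromosome 2 (176138720 to 178407776) held the lowest difference, that of Gm14403, with averages of 15.15 in SAMR1, 12.19 in nontreated and 12.34 in TG-treated SAMP8 (a difference of -2.81). Without chromosomes 4, X and Y, 61 of the 101 higher and 39 of the 90 lower strain differences that stayed were left.

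**Figure D2:**
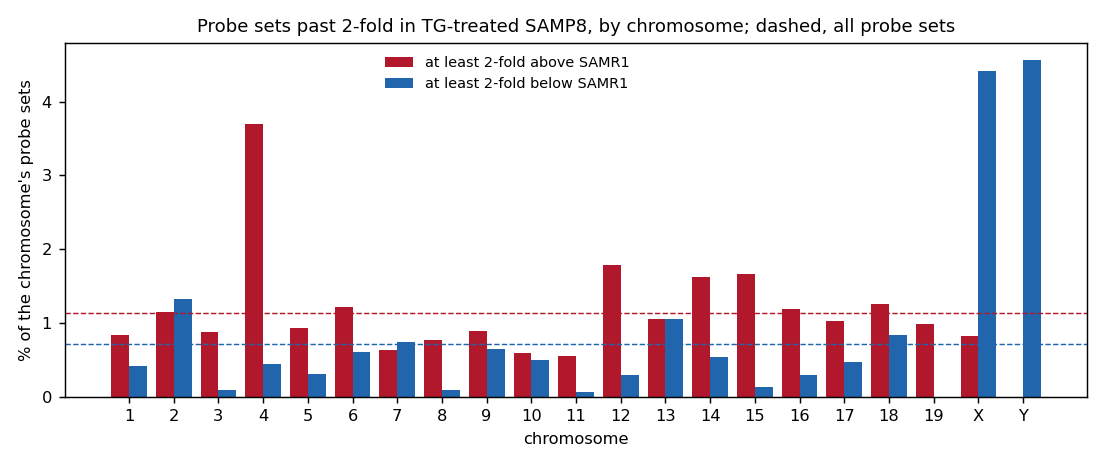
Bars give the percentage of each chromosome's probe sets (y axis) that were at least 2-fold above (red) or below (blue) SAMR1 in TG-treated SAMP8, and the dashed lines give the same over all probe sets, 1.13% and 0.712%. Chromosome 4 stands out on the higher side (3.70%) and chromosomes X (4.41%) and Y (4.57%) on the lower side.

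Strain differences that stayed were also found outside these chromosomes. Abcb1a, the P-glycoprotein pump of the blood-brain barrier (chr5:8567091-8748575), averaged 6.50 in SAMR1, 10.82 in nontreated and 9.90 in TG-treated SAMP8. It was thus 10.56-fold above SAMR1 with TG, and 0.92 lower on the log2 scale than without TG. Its neighbour and close paralog Abcb1b, named after its values were seen, averaged 5.17, 7.12 and 6.79. Nrip1, a corepressor of nuclear receptors (chr16:76287403-76373827), averaged 8.06, 11.04 and 10.81, a difference of 2.75. Vip, the neuropeptide of a class of interneurons (chr10:5639193-5647617), averaged 7.23, 8.69 and 9.43, a difference of 2.20, of which 1.46 was present without TG. Spink10, a serine protease inhibitor of the Kazal type, averaged 5.62, 7.30 and 7.37. B2m, the light chain of MHC class I, averaged 9.16, 10.61 and 10.64, a difference of 1.48, and it was the only one of 40 H2 and related probe sets past 2-fold (their median was -0.09).

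Strain differences that stayed on the lower side included genes of varied function. P3h2, a collagen prolyl hydroxylase (chr16:25959284-26105813), averaged 8.11 in SAMR1, 6.60 in nontreated and 5.77 in TG-treated SAMP8, a difference of -2.34. Lingo2, a neuronal leucine-rich repeat membrane protein (chr4:35696778-36951744), averaged 9.99, 7.37 and 7.95. Mtap, which salvages methionine from methylthioadenosine, averaged 7.04, 5.36 and 5.36 and so showed no difference between nontreated and TG-treated SAMP8. Parp8, a member of the ADP-ribosyltransferase family, averaged 9.84, 8.57 and 8.24, and Morn2 averaged 8.53, 6.53 and 7.09. Erdr1, whose averages were 14.17, 11.68 and 12.18, was not placed on the reference here. With TG, P3h2 and Parp8 stood further from SAMR1 than without it, and Lingo2, Morn2 and Erdr1 nearer.

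The 118 higher and 60 lower probe sets of the next kind leaned away from SAMR1 by 1.2-fold to 2-fold without TG and stood past 2-fold with it. Stmn1, which destabilizes microtubules, averaged 13.32 in SAMR1, 14.16 in nontreated and 15.23 in TG-treated SAMP8 (1.91). Atp5o, the stalk subunit of ATP synthase that confers oligomycin sensitivity, averaged 10.42, 11.20 and 12.37 (1.95). In both the step from nontreated to TG-treated SAMP8 (1.07 and 1.17) was larger than the strain step. On the lower side Slc18b1, a vesicular polyamine transporter, averaged 7.78, 7.08 and 5.76 (-2.02).

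A smaller set was near SAMR1 without TG and past 2-fold with it, 33 probe sets higher and 6 lower. Naca, the nascent polypeptide-associated complex subunit that shields new chains at the ribosome, averaged 11.42 in SAMR1, 11.68 in nontreated and 12.84 in TG-treated SAMP8 (a difference of 1.42). Gpx4, the glutathione peroxidase that reduces lipid peroxides (chr10:80047166-80056439), averaged 10.32, 10.47 and 11.58 (1.26). Pop5, a subunit of RNase P, averaged 6.66, 6.71 and 7.86 (1.2). Acyp1, Higd2a and Ypel3 were higher by 1.21, 1.18 and 1.15. On the lower side Nkain2, a protein that interacts with the sodium pump, averaged 12.28, 12.02 and 10.94 (-1.34). Prkcd, protein kinase C delta (chr14:30595353-30626414), averaged 10.85, 11.03 and 9.53 (-1.32), and Dcc, the netrin receptor (chr18:71253613-72351228), averaged 9.76, 9.74 and 8.65 (-1.11). Tmem255a and Lpar4 differed by -1.08 and -1.06, and the sixth, the dimmer glycine receptor subunit gene Glra2, by -1.10. For these genes TG-treated SAMP8, not nontreated SAMP8, was the group that stood apart.

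Overshoot, defined as at least 1.5-fold on one side of SAMR1 without TG and at least 1.5-fold on the other side with it, was rare. From above to below it was met by 2 of 22206 probe sets. Ptgds, the prostaglandin D2 synthase made by meninges, choroid plexus and oligodendrocytes (chr2:25466709-25470110), averaged 9.39 in SAMR1, 10.26 in nontreated and 7.57 in TG-treated SAMP8. It was therefore 1.82 below SAMR1 on the log2 scale, and 2.69 below nontreated SAMP8. The other was the dim pheromone gene Esp31 (4.16, 4.91 and 3.42). From below to above it was met by 4 probe sets, Mad2l2 (5.06, 4.37 and 5.87) and the pseudogene or predicted entries Sprr2j-ps, Gm14862 and Gm20837, all named after their values were seen. Esp31 dropped out once the dimmest 25% of probe sets were omitted, and centring the group averages on their medians raised the count from above to 4. Zic1, a transcription factor of thalamus and meninges, came near the same path with averages of 10.91, 11.47 and 9.56.

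Return to SAMR1, defined as a strain difference of at least 2-fold and a TG-treated average within 1.2-fold of SAMR1, was met by 12 of the 186 higher (6.5%) and 27 of the 327 lower probe sets (8.3%). The genes of this paragraph other than Acta2 and Igf2 were named after their values were seen. Acta2, smooth muscle actin, averaged 5.52 in SAMR1, 7.71 in nontreated and 5.54 in TG-treated SAMP8. The glucose transporters Slc2a1 of vessels (12.34, 13.45 and 12.49) and Slc2a3 of neurons (9.69, 10.69 and 9.81) followed the same path, as did Timp3, an inhibitor of matrix metalloproteinases (5.64, 6.65 and 5.74). Igf2, a growth factor made by meninges and choroid plexus, averaged 7.09, 8.67 and 6.78, and Fmod, a meningeal proteoglycan, 4.66, 6.09 and 4.21, so that both were past 1.2-fold on the lower side with TG. Of the 27 that returned from below, 5 had a single symbol of a characterized gene outside the chemosensory receptors, and of these only Defb45 (6.20 in SAMR1) reached the median signal of SAMR1.

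**Figure D3:**
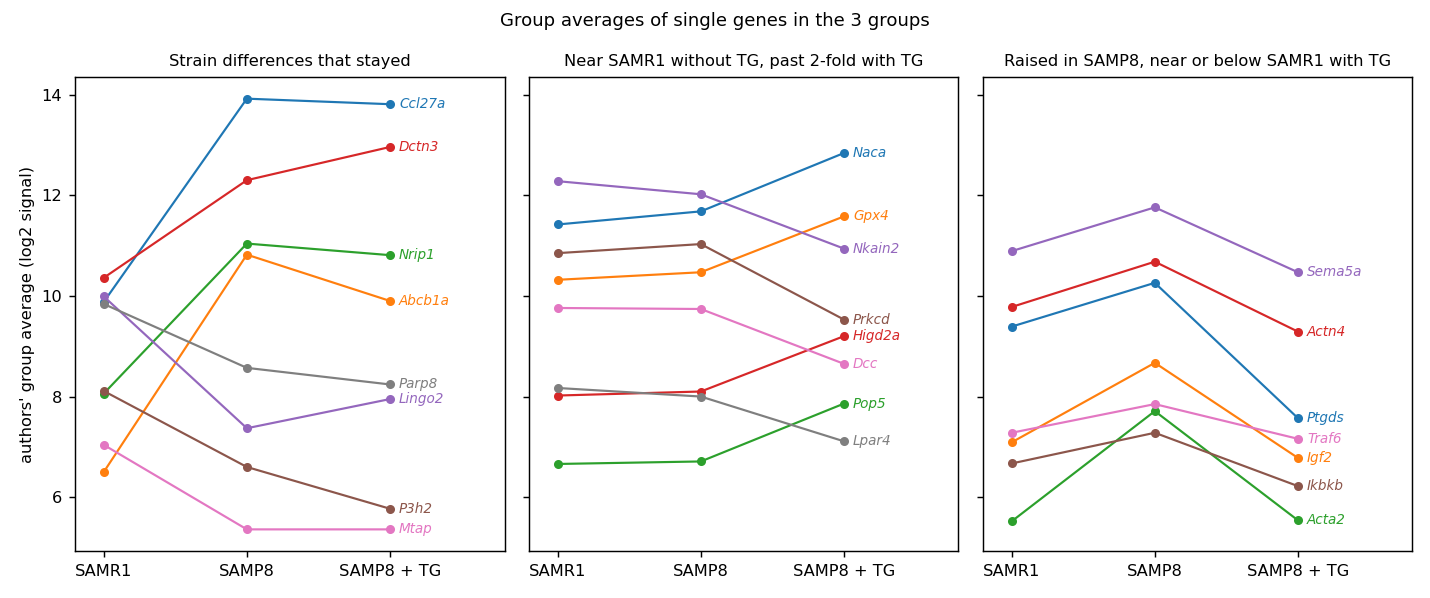
Lines join the authors' log2 group averages (y axis) of single genes in SAMR1, SAMP8 and TG-treated SAMP8, with 1 average of 3 arrays per point and no error available. Ccl27a, Dctn3, Nrip1 and Abcb1a stay above SAMR1 in both SAMP8 groups (left), Naca and Prkcd part from SAMR1 with TG alone (middle), and Ptgds goes from 10.26 to 7.57, below its SAMR1 average of 9.39 (right).

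Acta2, Ptgds, Igf2 and Fmod are markers of vessels or meninges, and the whole marker lists were therefore set beside them. Of 20 meningeal markers, 13 were lower in TG-treated SAMP8 than in SAMR1, with a median of -0.20 and 2 at least 2-fold lower (Ptgds and Dcn, the proteoglycan decorin, with averages of 10.66, 10.15 and 9.38). The median was 0.29 for nontreated SAMP8 minus SAMR1. Over all 22206 probe sets, 11195 were lower in TG-treated SAMP8 than in SAMR1, and 0.712% at least 2-fold lower. The summed linear signal of the meningeal list was 14.39 in SAMR1, 14.56 in nontreated and 14.06 in TG-treated SAMP8 on the log2 scale. For 13 smooth muscle and pericyte markers the medians were -0.12 with TG and 0.27 without, and their summed signals 11.57, 12.66 and 12.29, so that the sum with TG was above that of SAMR1 although the median was below. Rgs5, a pericyte marker, was at least 2-fold higher than in SAMR1 (8.94, 10.23 and 10.06). For 12 endothelial markers, which include Abcb1a and Slc2a1, the medians were 0.05 with TG and 0.40 without. Their median for TG-treated minus nontreated SAMP8 was -0.28, and their summed signals were 13.13, 14.15 and 13.32. For 18 probe sets of thalamic markers, some markers having several, the median was 0.12, with 2 at least 2-fold lower. These markers include Prkcd and Zic1, and the summed signals were 13.14, 13.40 and 12.66. The 13 cortical and the 13 striatal probe sets each had a median of -0.05. Past 2-fold were Lamp5 (1.37) and Foxp2 (-1.24) of the cortical and Penk (1.14) of the striatal list. The part of tissue composition in the values of Ptgds, Igf2, Acta2, Prkcd and Zic1 was not tested, and fewer cells of a type cannot be told apart from less RNA per cell.

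Markers of the hippocampus itself were present, with list medians near 0. The median difference was 0.06 for 8 CA1, 0.05 for 7 CA3 and 0.03 for 11 dentate granule markers. Single members stood apart, as the CA1 marker Spink8 (5.20, 6.50 and 6.33, a difference of 1.13) and the CA3 marker Cpne4 (11.20, 11.35 and 10.30, -0.90). It was 0.09 for 11 forebrain excitatory markers, whose median average in SAMR1 was 12.97. Nrgn, the postsynaptic calmodulin-binding protein neurogranin, was the highest of these, with averages of 14.07, 14.90 and 15.74 (1.67). The 12 interneuron probe sets, 8 of them above SAMR1, had medians of 0.11 with TG and 0.03 without. Among them only Vip (2.20) was past 2-fold, and Gad2 was lowest at -0.64. Microglial markers had a median of 0.00 with Aif1 past 2-fold (5.71, 7.22 and 6.78, a difference of 1.07), endothelial markers 0.05 and choroid plexus markers -0.02, although Ttr, the transthyretin of choroid plexus, averaged 8.45, 9.33 and 10.05. Astrocyte markers lay above SAMR1 in 11 of 12, beside 48.1% of all probe sets, with Aldoc highest at 0.98. Their median was 0.28 with TG and 0.18 without. The 14 oligodendrocyte markers had a median of 0.20 with TG and -0.23 without. Oligodendrocyte precursor markers, 4 of 6 above SAMR1, had medians of 0.42 with TG and 0.20 without. For TG-treated minus nontreated SAMP8 the medians were -0.03 for the astrocyte, 0.40 for the oligodendrocyte and 0.09 for the precursor list.

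Among the lists of genes by function, leaving aside the study's own gene sets, the medians furthest from 0 were those of the cytosolic ribosome and of oxidative phosphorylation. Of 88 cytosolic ribosomal protein probe sets, 81 were above SAMR1, 45 at least 1.5-fold and 18 at least 2-fold, and none was 1.5-fold lower. Their median was 0.59, beside -0.01 over all 22206 probe sets. Of all probe sets, 48.1% were above SAMR1, 5.62% at least 1.5-fold and 1.13% at least 2-fold. In nontreated SAMP8 the median of the ribosomal list was 0.06. Both ribosomal subunits lay on the same side, with a median of 0.56 over 55 large-subunit and 0.64 over 33 small-subunit probe sets. Rps21 was highest with averages of 7.99 in SAMR1, 8.82 in nontreated and 10.01 in TG-treated SAMP8 (2.02). Rpl35 averaged 8.56, 9.10 and 10.04, Rpl35a 8.46, 8.84 and 9.94, and Rps9 6.66, 7.42 and 8.13. In the 18 past 2-fold, nontreated SAMP8 differed from SAMR1 by -0.10 to 0.83. The probe sets of Rpl13, Rpl10 and Rpl12 also cover small RNAs. Rps27l was the lowest member at -0.36.

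Of 87 probe sets for subunits of oxidative phosphorylation, 82 were above SAMR1 (94.3%), 39 at least 1.5-fold and 11 at least 2-fold, and none was 1.5-fold lower. Over all probe sets these shares were 48.1%, 5.62% and 1.13%, with 4.83% at least 1.5-fold lower. The median of the oxidative phosphorylation list was 0.52 with TG and 0.10 without. It was 0.45 over 38 subunits of complex I (NADH dehydrogenase), 0.51 over 4 of complex II, 0.71 over 10 of complex III with cytochrome c, 0.50 over 18 of complex IV (cytochrome c oxidase) and 0.68 over 17 of ATP synthase, so that every complex lay on the same side. Ndufs7, a complex I subunit that carries an iron-sulfur cluster, averaged 6.70 in SAMR1, 7.17 in nontreated and 8.41 in TG-treated SAMP8 (1.71). Uqcrb of complex III averaged 13.08, 13.81 and 14.52 (1.44), Cox7b of complex IV 11.26, 11.49 and 12.40 (1.14) and Ndufa4 11.29, 11.94 and 12.51 (1.22). Uqcrc1 of complex III differed by 1.32. Most of the 11 past 2-fold stood between SAMR1 and the TG-treated average without TG, the exception being Atp5e (7.24, 7.11 and 8.25). The lowest member was a dim probe set that Ndufa13 shares with Yjefn3 (-0.40), and the other probe set of Ndufa13 went the other way (0.36).

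Related machinery was higher by less. The counts stand beside 48.1% of all probe sets above SAMR1 and 1.13% at least 2-fold higher. Of 77 mitochondrial ribosomal protein probe sets, 62 were above SAMR1 and 4 at least 2-fold, with a median of 0.25. Mrpl35 stood out among them as a strain difference, with averages of 6.23, 7.72 and 7.86, whereas Mrpl20 (9.01, 9.04 and 10.03) was near SAMR1 without TG. The 49 proteasome probe sets had a median of 0.27, with none past 2-fold and Psmb6 highest at 0.93. The 67 replication-dependent histone probe sets had a median of 0.30, beside -0.01 without TG, with Hist1h3e past 2-fold (1.39). Of 41 antioxidant enzymes, 31 were above SAMR1 (median 0.25), Gpx4 and the glutathione transferase Gstm5 (9.89, 10.14 and 11.01) past 2-fold.

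**Figure D4:**
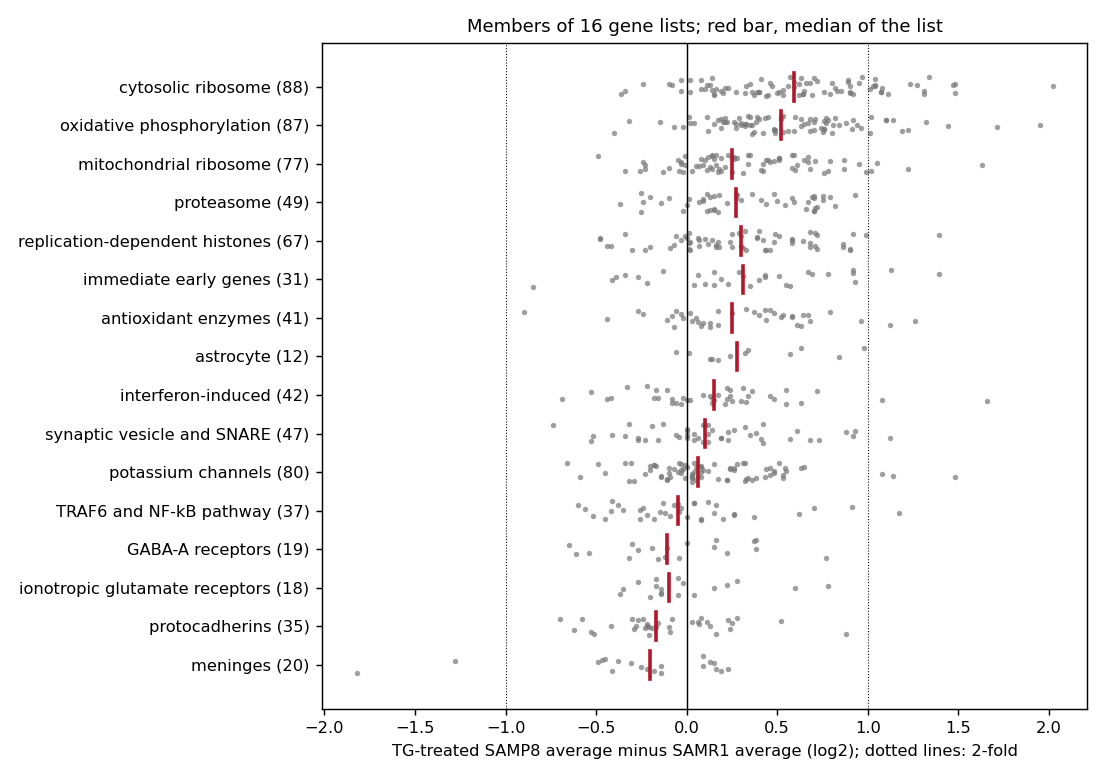
Each grey point is a probe set's TG-treated SAMP8 average minus its SAMR1 average (x axis, log2) in 16 gene lists (y axis, number of probe sets in parentheses), red bars are list medians and dotted lines mark 2-fold. The cytosolic ribosome (median 0.59) and oxidative phosphorylation (0.52) lie mostly right of 0. The GABA-A (-0.11) and ionotropic glutamate receptors (-0.10), the protocadherins (-0.17) and the meningeal markers (-0.20) have medians left of it, with members on both sides.

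The ribosomal and respiratory chain genes are short, and the difference varied with the span of a gene on the genome. Among probe sets in the upper 50% of signal, sorted by span and divided into 10 classes of like size, the shortest class (0.07 to 4.37 kb) had a median of 0.13, the second shortest 0.14 and the longest -0.04. These first classes held 58 and 53 probe sets at least 2-fold higher, and the longest 7. The median span was 3.14 kb for the cytosolic ribosome, 7.13 kb for oxidative phosphorylation and 298.23 kb for the ionotropic glutamate receptors. The medians of the first 2 lists, 0.59 and 0.52, were above those of the classes of like span. In nontreated SAMP8 minus SAMR1 the medians of the classes ran from 0.00 in the shortest to 0.13 in the longest. In TG-treated minus nontreated SAMP8 they fell more steeply, from 0.20 in the shortest to -0.17 in the longest. The medians of the ribosomal and oxidative phosphorylation lists in that step were 0.59 and 0.45. The part of span, or of RNA quality, which these files do not give, in the list medians was not tested.

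**Figure D5:**
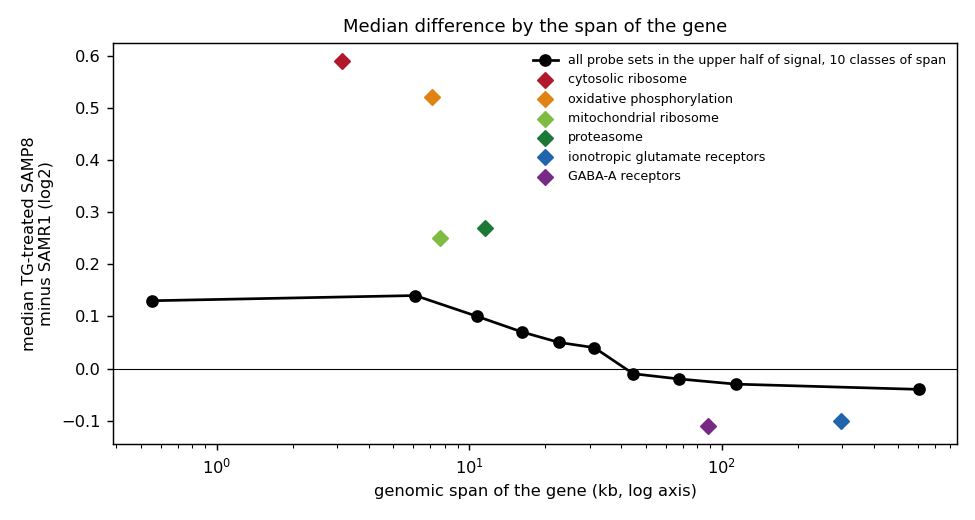
Black points give the median of TG-treated SAMP8 minus SAMR1 (y axis, log2) in 10 classes of genomic span (x axis, kb, log axis) for probe sets in the upper 50% of signal, each placed at the geometric middle of its class, and diamonds give 6 gene lists at their median span. The classes go from 0.13 in the shortest to -0.04 in the longest, and the ribosomal (0.59) and oxidative phosphorylation (0.52) lists lie above them.

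For neurotransmission genes the counts past 2-fold are to be read against 1.85% of all probe sets past 2-fold in either direction, a share at which lists of this size would hold few or none. None of 18 ionotropic glutamate receptor, 8 metabotropic glutamate receptor, 19 GABA-A receptor, 21 cholinergic and 28 monoamine receptor probe sets was past 2-fold, and their medians were -0.10, 0.11, -0.11, -0.02 and -0.02. Gabra2, an alpha subunit of the GABA-A receptor, averaged 14.11 in SAMR1, 14.19 in nontreated and 13.46 in TG-treated SAMP8 (-0.65). Grin2b, an NMDA receptor subunit, averaged 15.68, 15.79 and 15.31, and Grm5 12.05, 12.39 and 11.97. Of 47 synaptic vesicle and SNARE probe sets, Syt2, a calcium sensor of fast release, was past 2-fold (6.37, 7.03 and 7.49), and the median was 0.10. Of 80 potassium channel probe sets 3 were past 2-fold, Kcnj11, a pore subunit of the ATP-sensitive channel (5.70, 6.75 and 7.18), Kcnh3 (1.14) and Kcnk1 (1.08). The median of 40 sodium and calcium channel probe sets was 0.04.

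Immediate early genes, which neurons switch on within minutes of activity, were above SAMR1 in 24 of 31, with a median of 0.31 with TG and 0.23 without. Over all probe sets 48.1% were above SAMR1 with TG. Nr4a1, a nuclear receptor, averaged 7.78 in SAMR1, 8.80 in nontreated and 9.17 in TG-treated SAMP8 (1.39). Arc, which tunes synaptic strength, averaged 6.88, 7.52 and 8.01 (1.13), and Egr1 11.75, 12.58 and 12.68 (0.93). Ptgs2, the inducible cyclooxygenase, stood on the other side (8.03, 7.80 and 7.18). Bdnf, the neurotrophin, averaged 8.76, 9.16 and 8.42.

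For inflammatory signalling outside the chromosome 4 cluster, counts past 2-fold were small, and lists of this size would hold few at the share of all probe sets (1.85% either way). Of 37 TRAF6 and NF-kB pathway probe sets only Traf2 was past 2-fold (5.08, 5.76 and 6.25, a difference of 1.17), and the median was -0.05. Traf6, the ubiquitin ligase between Toll-like and interleukin-1 receptors and NF-kB, averaged 7.28 in SAMR1, 7.85 in nontreated and 7.16 in TG-treated SAMP8. Ikbkb, the kinase that releases NF-kB, averaged 6.67, 7.28 and 6.22. Both were thus above SAMR1 without TG and on its lower side with TG, by -0.12 and -0.45. Tnf (2.66, 2.86 and 2.83) and Il6 (3.45, 3.71 and 3.54) were near the bottom of the array's range, which began at 2.39, in every group. None of 83 cytokine and chemokine receptor probe sets was past 2-fold (median -0.05), and the medians were 0.04 for 35 complement and 0.15 for 42 interferon-induced probe sets. Ifit3b (6.80, 7.87 and 8.46) and its near copy Ifit3 (7.27, 7.87 and 8.35), which restrain viral RNA, were the interferon-induced members past 2-fold.

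The study's own gene sets were picked on these same arrays for the step from nontreated to TG-treated SAMP8 or for the strain step, so their place relative to SAMR1 is a description and no independent evidence. Of the 10 genes it lists as most upregulated by TG, 10 lay above SAMR1, with a median of 0.58 beside -0.16 without TG, and Gpx4 and Mrpl20 were past 2-fold. Dbi, the diazepam binding inhibitor, averaged 9.09 in SAMR1, 8.48 in nontreated and 9.63 in TG-treated SAMP8, and Atp5l 11.17, 10.38 and 11.52. These were below SAMR1 without TG and above it with TG. Of the 10 listed as most downregulated by TG, 9 lay below SAMR1, with a median of -0.67 beside 0.68 without TG, and Ptgds, Prkcd and Dcc were past 2-fold. Arel1, a ubiquitin ligase, averaged 15.81, 16.30 and 14.96, and Glb1l 6.68, 7.06 and 5.71. Its 18 inflammation genes had a median of 0.04 with Il4ra highest (0.59) and Tnfaip8 lowest (-0.56), and its 10 neurotransmitter genes a median of -0.11, 8 of them below SAMR1. The median of these 10 was 0.29 for nontreated SAMP8 minus SAMR1 and -0.45 for TG-treated minus nontreated SAMP8.

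Other groups gave values on both sides. The shares of all 22206 probe sets were 1.13% at least 2-fold higher and 0.712% at least 2-fold lower, and 11195 lay below SAMR1. The 1460 olfactory and vomeronasal receptor probe sets, with a median average of 4.20 in SAMR1, held 3 at least 2-fold higher and 19 at least 2-fold lower, and 14 of the latter were vomeronasal, some of them in a run on chromosome 7. Of 35 protocadherin probe sets, 22 lay below SAMR1 with a median of -0.17, although Pcdh9 was above it (9.64, 10.64 and 10.52). Of 44 collagen probe sets, Col6a4 (-1.17) and Col11a1 (-1.05) were at least 2-fold lower, and the median was -0.05. The medians of 26 clock, 18 insulin-like growth factor and 23 cholesterol synthesis probe sets were 0.01, -0.01 and 0.15, with none past 2-fold.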

How the data were processed

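Hippocampal RNA was hybridized to Clariom S Mouse arrays. The authors normalized the intensities by SST-RMA in Transcriptome Analysis Console and deposited 2 tables, in which each probe set has a log2 signal averaged by the authors over the 3 arrays of a group. SAMP8 averages were equal in both tables for 22206 of 22206 probe sets. The deposited tables also hold the authors' signed linear fold change (a score), p-value and false discovery rate adjusted p-value for their comparisons, none of which was used. Precision is limited by the number of arrays. A description of a macrophage cell line attached to the sample records was not used, and neither was the mention of duplicate RNA samples in the series text, since the records and the methods give 3 arrays per group.

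The tables were joined by probe set identifier and the averages subtracted. Limits were 2-fold for a difference, 1.2-fold for near SAMR1 and 1.5-fold on each side for overshoot. Of the probe sets, 22203 carried a symbol, 836 of them several. Positions are those of GRCm38 genes matched by symbol for 96.5% of probe sets. The rule was that the 10 highest and 10 lowest differences and the 6 leading genes of each class are named, among characterized single-symbol genes whose signal reached the median in SAMR1 or TG-treated SAMP8, with the 5 extremes over all probe sets, the study's genes, and the list members past 2-fold or at either end. Some members of marker lists and the genes so marked were picked with their values in view. Some genes chosen by the rule are left out of the text. The comparison, the 31 gene lists and the 18 marker lists were chosen with earlier results of these data known. The code that places probe sets in classes was run on simulated data with large built-in differences for some of the classes. That run checks the code only and does not bear on probe sets close to a limit. Alternatives left out the lowest 25% of signal, centred the averages, kept characterized single symbols, left out chromosomes 4, X and Y, or used limits of 1.5-fold and 3-fold. Python 3.11.15 with numpy 2.4.6, pandas 2.3.3 and matplotlib 3.10.9 was used.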

Additional observations from a re-analysis of the deposited data

How the results depend on the processing

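Of 80 recounts, 48 were within 1.5 times the count given above. Which side held more changed in places: the probe sets that stayed were 97 higher and 105 lower by unique symbol, and those that returned were 8 from above and 5 from below with characterized single symbols. The 93 list medians under settings other than centring stayed within 0.1. Centring adds 0.02 to every difference. Of 13 means over all probe sets of a symbol, 7 moved by more than 0.1. With characterized single symbols, 57 probe sets were lower, 59 stayed higher, 16 stayed lower, 1 overshot from below and 5 returned from below. Without chromosomes 4, X and Y, 99 were lower, 61 stayed higher, 39 stayed lower, 1 overshot from below and 3 were lower with nontreated SAMP8 near SAMR1. Overshoot from above was 1 without the lowest 25% of signal and 4 after centring. At 1.5-fold, 1248 were higher and 1073 lower, 439 and 493 stayed, 220 and 182 overshot (at 1.2-fold on each side), 347 and 248 were near SAMR1 without TG, and 293 and 327 returned. At 3-fold these pairs were 60 and 23, 40 and 14, 0 and 0 (at 2-fold on each side), 1 and 0, and 1 and 2. The fewer or more probe sets that pass a limit follow from the limit itself. No paired analysis was possible because the columns used hold group averages without replicate numbers, and for the same reason no array could be left out. Averages near the bottom of the range, and Camk2a at 19.93 in every group, the top of the range, carry little information on a difference.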
